A study of Mus musculus with 24 samples.

Results

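The clustered protocadherins are neuronal cell surface proteins encoded side by side on mouse chromosome 18 in the gene clusters Pcdha, Pcdhb and Pcdhg. CpGs were assigned to them by position alone, as every CpG of the table in the stretch of chromosome 18 (GRCm38, mm10) that holds the 3 clusters and their borders. This gave 897 of 694379 CpGs, the first at 36920315 and the last at 37842894. DNA methylation was measured by reduced representation bisulfite sequencing (RRBS), in which bisulfite turns unmethylated cytosines into uracil and reads are taken from CpG-rich MspI fragments. The samples were micro-dissected dentate gyri of 24 female C57BL/6JRj mice, 1 sample a mouse. The 8 young STD mice were 3 months old and lived in standard cages, the 8 aged STD mice were 17 months old and also lived in standard cages, and the 8 aged ENR mice were 17 months old and had spent their last 3 months in environmental enrichment. The ENR mice of an experiment shared an enclosure and the STD mice shared cages, so that housing and enclosure cannot be told apart. The tissue held all cell types of the dentate gyrus, so a level is an average over them, and a changed share of a cell type and a changed level within it cannot be told apart. The study asked whether ENR begun at an old age acts on the DNA methylation that differs between young and aged mice.

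In each cluster, a series of large variable exons encodes the outside of the protein, and in Pcdha and Pcdhg each of them is joined to the same set of short constant exons that encode the inner end. The Pcdhb genes have no constant exons. Each variable exon has a promoter of its own. Single neurons use a small and partly random set of the alternate promoters, which gives them a surface identity by which branches of the same cell avoid each other, and choice of a promoter goes with CTCF and cohesin binding and with loss of DNA methylation at that promoter. The C-type exons at the downstream ends of Pcdha and Pcdhg (Pcdhac1, Pcdhac2, Pcdhgc3, Pcdhgc4 and Pcdhgc5) are used more evenly by neurons, and the silencing of alternate promoters involves the DNA methyltransferase Dnmt3b.

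Of the 897 CpGs, 656 lay in a variable exon and 22 in the 500 bp before it. Together these 678 CpGs fell to Pcdha (145), Pcdhb (132) and Pcdhg (401). Of the others, 31 lay in Taf7, a gene between Pcdhb and Pcdhg that encodes a subunit of the general transcription machinery, and 13 in Pcdhgb8. Pcdhgb8 was not among the exons tested, which were those of genes annotated as protein-coding. The rest lay in constant exons (7), elsewhere in Pcdha (49), Pcdhb (14) and Pcdhg (25), or between and beside the clusters (80). GENCODE M21 places 57 variable exons of protein-coding genes here, and 42 of them had at least 3 CpGs in at least 3 mice of each group and were tested. Coverage was uneven: all 18 alternate Pcdhg exons and all 5 C-type exons were tested, but only 13 of 22 Pcdhb exons and 6 of 12 alternate Pcdha exons. The table held no CpG in 6 Pcdha exons (Pcdha6, Pcdha7, Pcdha9, Pcdha12 and both genes that the annotation names Pcdha11) and in 6 Pcdhb exons, and Pcdhb7, Pcdhb12 and Pcdhb20 were measured in too few CpGs or mice.

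These exons are near copies of each other, so the reads that RRBS would give were predicted from the reference, as the first 75 bases from each end of MspI fragments of 70 to 300 bp. Of 1497 CpGs so reached, 817 were in the table. None of the 127 CpGs whose predicted read has an exact copy elsewhere in the interval was in the table, against 130 of 289 (45%) with a copy at 1 to 3 mismatches, 168 of 246 (68.3%) at 4 to 10 and 519 of 835 (62.2%) with none that close. In Pcdha8, 19 of the 25 predicted CpGs had an exact copy. Copies were looked for in the interval only and 80 of the 897 CpGs lay in no predicted read, so whether reads with near copies were placed correctly was not tested.

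A mouse had a value at 410 to 837 of the 897 CpGs (median 591 for the young STD, 573.5 for the aged STD and 644.5 for the aged ENR group). The number of reads behind each percentage is not given, so single values carry no interval. Over the whole table, aged STD replicate 5 lay lowest, -2.43 points on average from the level of each CpG, against -0.892 to 1.59 points in the other mice, and results are also given without it where they move. The tissue label could be checked only weakly, because DNA methylation is not expression and few marker genes had a tested first exon. Among neuron markers, the first exon of Prox1, which marks dentate granule cells, was at 4.16% and that of Snap25 at 1.73%. Markers of other cells were as low at Slc1a3 (1.72%), Gjb6 (2.57%), Cldn5 (2.99%) and Flt1 (1.42%) and higher at Mbp (10.2%) and Aldh1l1 (28.4%), so these levels do not tell the cell types apart. Tested first exons were 2 of 7 for neuron, 3 of 5 for astrocyte, 1 of 6 for oligodendrocyte, 2 of 4 for endothelial and 0 of 5 for microglial markers. None of these was called in any comparison by limma, and 1 of the 2 endothelial exons had an unadjusted p under 0.05 with age and 1 between aged ENR and young STD mice.

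Methylation of the variable exons was intermediate and far from that of other first exons. The level of an exon, its mean over CpGs and groups, had a median of 58.5% over the 42 exons, against 1.58% over all 9932 first exons tested and 3.04% over 296 other first exons of at least 2000 bp. Between 25% and 75% lay 29 of the 42 exons (69%), against 4.28% of all first exons and 13.2% of the long ones. These are descriptions of exons that share a locus and a sequence, and no test was made of them. The mean levels of single CpGs showed the same: 63.1% of the 897 lay between 10% and 90%, against 30% of all CpGs of the table. These levels are means over mice, and the values of single mice were often not intermediate. Of these values, 67.4% were exactly 0% or 100% in the clusters, against 83.6% over all CpGs. At CpGs with a level of 20% to 80%, the spread between mice of a group was wide but ordinary, with a median SD of 34.1 points for the clustered protocadherins and 35.4 points for all such CpGs.

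**Figure D1:**
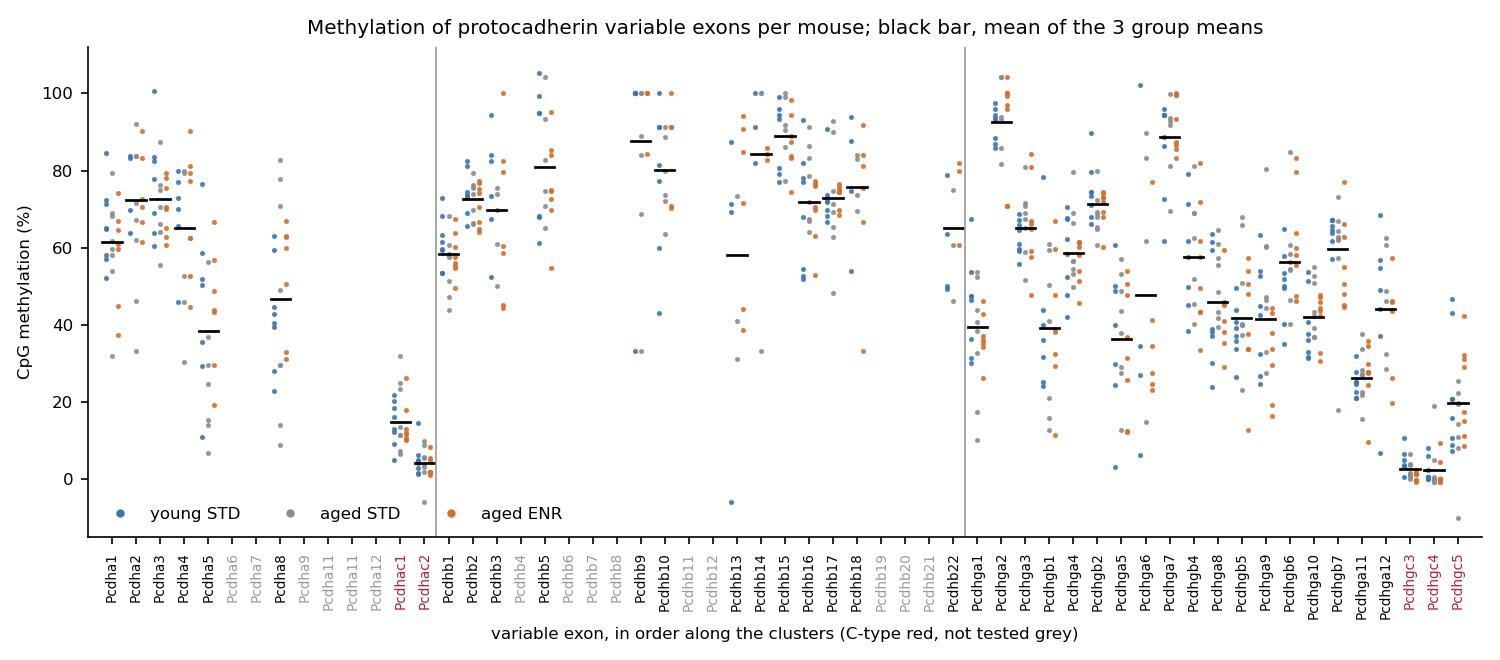
Methylation (percent, y axis) of each variable exon in cluster order (x axis), with a point for each mouse in its group's colour and a black bar at the mean of the 3 group means. The bars of the 5 C-type exons lie below 25%, although single mice reach 46.6%, and those of the 37 other exons tested between 26.3% and 92.7%; values are adjusted for which CpGs a mouse had, so a few fall below 0 or above 100.

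The C-type exons stood lowest. Their levels were 2.27% (Pcdhgc4), 2.59% (Pcdhgc3), 4.20% (Pcdhac2), 14.9% (Pcdhac1) and 19.6% (Pcdhgc5), and the lowest of the other 37 exons, Pcdhga11, was at 26.3%. In all 24 of 24 mice the mean of the alternate and Pcdhb exons exceeded that of the C-type exons, by 44.8 to 58.5 points. The CpGs of the C-type exons were mostly near 0: 81.6% of 141 were under 10%, against 2.79% of the 537 CpGs of the other exons.

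Within the C-type exons, levels were not uniform. Pcdhgc4, the isoform known to be needed for the survival of cortical interneurons, had a per-mouse median of 0.670% among the young STD mice and of 0% in both aged groups. Pcdhgc5 ranged far more widely, with a young STD median of 18.3% (7.27% to 46.6%), an aged STD median of 16.9% (highest 25.4%, lowest below 0) and an aged ENR median of 23.3% (8.54% to 42.2%). Pcdhac1 had medians of 14.6%, 12.5% and 11.9% in the same order. The groups overlapped at each of these exons.

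Among the other exons, Pcdhb was the most methylated class, with a median level of 72.9% over 13 exons and all 13 above 50%. The alternate Pcdha exons had a median of 63.2% (38.4% to 72.6%), and 4 of 6 were above 50%. The alternate Pcdhg exons had a median of 46.8% and the widest range. At the top were Pcdhga2 (92.7%) and Pcdhga7 (88.7%), with Pcdhb15 (88.9%) and Pcdhb9 (87.6%) beside them. The lowest and median values of Pcdhga2 were 85.7% and 93.3% among young STD, 81.7% and 93.5% among aged STD, and 70.8% and 98.1% among aged ENR mice, with 6 aged STD mice measured. Pcdhb13 (58.2%) and Pcdhb1 (58.4%) were the lowest Pcdhb exons, and Pcdha2 (72.2%) and Pcdha3 (72.6%) the highest Pcdha exons. The Pcdhga and Pcdhgb families had medians of 45.1% over 12 Pcdhga exons and 57.0% over 6 Pcdhgb exons, and their ranges overlapped.

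Over the exons of all classes together, those with more CG dinucleotides tended to be less methylated. Over the 42 exons, Spearman's rho between the level and the number of CGs per 100 bases was -0.459 (Pearson's r -0.43), and without the C-type exons it was -0.473. The exons share sequence and clusters, so this is a description across exons and not a test. The Pcdhb exons held a median of 2.07 CGs per 100 bases, against 3.72 in the alternate Pcdhg, 4.74 in the alternate Pcdha and 3.82 in the C-type exons. Pcdhb was thus both the poorest in CGs and the most methylated class, and a relation within a class was not tested. The alternate Pcdha exons were thus the richest in CGs of the 4 classes but at a higher median level than those of Pcdhg. The CpGs measured lay in different places, however: 39 of the 65 CpGs of the alternate Pcdha exons were 2000 to 2500 bp into the exon, against 6 of the 340 of the alternate Pcdhg exons, and levels differed with that distance.

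In most classes, methylation was higher further into the exon than in its first 500 bp. In the alternate Pcdhg exons, the mean level of single CpGs was 17.2% in the 500 bp before the annotated exon start (11 CpGs of 2 exons), 30.8% in the first 500 bp (98 CpGs of 11 exons), 51.3% from 500 to 1000 bp and 68.3% from 1000 to 1500 bp, and 45.5% in the 500 bp after that. The few CpGs further in were at 53.0% from 2000 to 2500 bp (6 CpGs of 3 exons) and 72.6% beyond (4 CpGs of 2 exons). In Pcdhb it was 40.4% in the first 500 bp and 76.1% and 79.1% in the next stretches, while the 4 CpGs before the exon, all of 1 exon, were at 60.4%. The alternate Pcdha exons were sparsely covered: 1 CpG before the exon was at 79.8%, the first 500 bp were at 40.8% (16 CpGs of 2 exons), the 2 CpGs of the next 500 bp at 17.5%, and the stretch from 2000 bp at 68.0% (39 CpGs of 4 exons). In the C-type exons it stayed at 4.99%, 2.04% and 6.73% up to 1500 bp and reached 26.9% and 41.5% in the stretches after that, with 9 and 7 CpGs, and was 10.8% in the last 7 CpGs beyond 2500 bp, all of 1 exon.

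**Figure D2:**
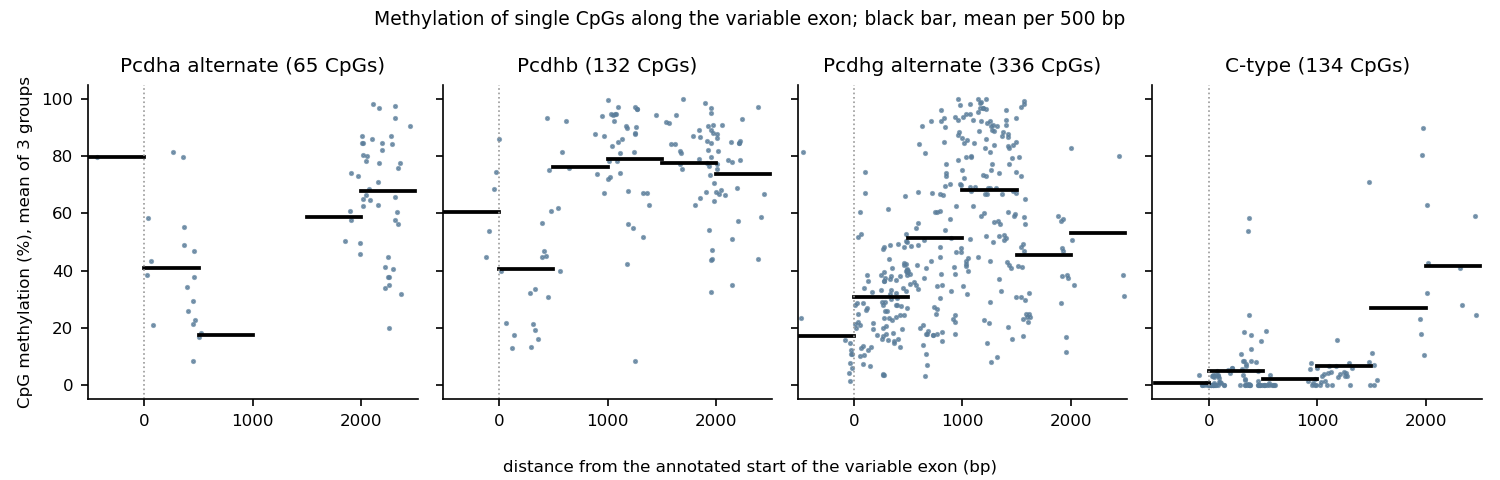
Level of each CpG (percent, y axis, mean of the 3 group means) against its distance in bp from the annotated start of its variable exon (x axis), by exon class, with a black bar at the mean of each 500 bp stretch. CpGs 2500 bp or further into the exon are not drawn. In the Pcdhg alternate panel the bars climb from 17.2% to 68.3% at 1000 to 1500 bp. They then fall to 45.5% in the next stretch and end at 53.0% with 6 CpGs. In the C-type panel the bars lie under 10% up to 1500 bp.

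The stretches hold CpGs of different exons, so the gradient was also read within exons. Of the alternate and Pcdhb exons, 10 had at least 3 CpGs both in the first 500 bp and from 1000 to 1500 bp, and the later stretch was higher in all 10, by 12.3 to 74.0 points (median 40.5). Pcdhga4 went from 15.7% to 89.8%, and the later stretch was higher in 19 of its 19 mice with both values. Pcdhga3 went from 29.3% to 88.4%, in 21 of 21 mice, and Pcdhb2 from 36.4% to 92.3%, in 21 of 21. Pcdhga9 had the smallest difference, from 37.3% to 49.6%, in 12 of 15 mice. The C-type exon Pcdhgc3 went from 0.850% to 4.19% and Pcdhac2 from 2.61% to 11.2%. In 78 other long first exons with CpGs in both stretches the median difference was 0.394 points, and 14 of the 78 differed by over 12 points upward. These other exons had little methylation in either stretch, with median levels of 1.53% and 2.77%, and the later stretch was higher in 47 and lower in 31 of them.

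The groups were then compared, first by class. The mean of the alternate Pcdha exons in young STD mice was 61.6% ± 4.25 (SD, n = 8, as for all groups here), that of the aged STD mice was 55.2% ± 9.28, and that of the aged ENR mice was 61.8% ± 5.71. The lowest value was that of aged STD replicate 6, at 41.6%, and 4 of the 8 aged STD mice lay below every young STD mouse, while the other 4 lay within the range of the young STD mice. The mean of the Pcdhb exons was 74.95% ± 6.45, 73.0% ± 5.86 and 74.7% ± 4.04 in the same order. The mean of the alternate Pcdhg exons was 52.6% ± 2.73, 54.8% ± 4.56 and 51.6% ± 2.11. For the C-type exons it was 9.64% ± 3.32, 7.90% ± 1.35 and 8.64% ± 3.25. The groups overlapped in all 4 classes, and no test was made of a mean over exons.

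**Figure D3:**
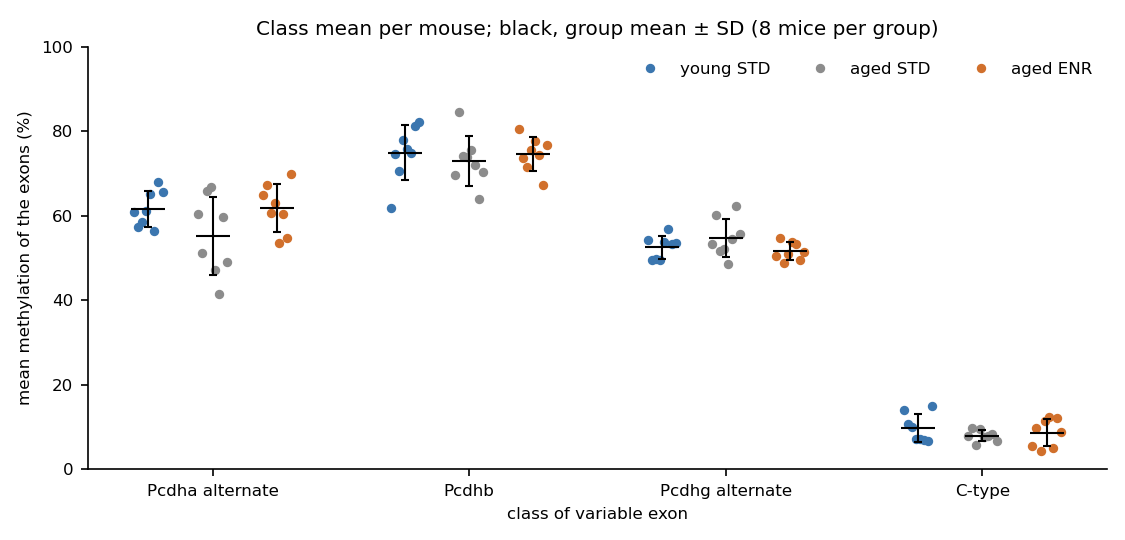
Mean methylation of the exons of a class (percent, y axis) in each mouse, by class and group (x axis), with the group mean ± SD in black over 8 mice. The 3 groups overlap in each class, and the aged STD mice spread most in the alternate Pcdha class, from 41.6% to 66.8%.

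By exon, no difference with age passed the test. With limma over all 9932 first exons and Benjamini-Hochberg adjustment, 0 of the 42 exons were called between aged STD and young STD mice (0.0403% of all first exons were called), and 0 had an unadjusted p under 0.05 (4.72% of all first exons did). The smallest adjusted p was 0.893. Aged STD mice were higher at 21 exons and lower at 21, with a median difference of 0.0771 points and a median standard error (SE) of 6.04 points. The SEs ran from 1.11 points at Pcdhgc3 to 22 points at Pcdhb13, so the differences that could be told from 0 were small at some exons and very large at others.

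The largest age differences were at exons with a wide spread. Pcdhga6 was 19.9 points higher in aged STD mice (SE 21.1), but the 4 young STD mice with a value had 6.25%, 27.1%, 34.6% and 102%, and the 4 aged STD mice 14.9%, 61.7%, 83.3% and 89.8%. The difference at Pcdha5 was -18.5 points (SE 9.47, limma adjusted p = 0.893), with a median of 50.4% in young STD (10.9% to 76.4%) and 24.8% in aged STD mice (6.74% to 56.3%), while aged ENR mice had a median of 43.9% (19.2% to 66.6%). The groups overlapped at both exons. Leaving out 1 mouse put the Pcdhga6 difference anywhere from 8.15 points (without young STD replicate 3) to 39.4 points (without young STD replicate 6). Pcdha5 lies at 36960440 to 36962785 and 12 of its CpGs were measured, 11 of them in the exon.

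The next differences were -13.3 points at Pcdhb14 (SE 17.3), -10.96 at Pcdha4 (SE 9.69) and -9.72 at Pcdhb9 (SE 13.5). At Pcdhb14, the 3 aged STD mice with a value had 33.3%, 100% and 100%, so that 1 mouse, aged STD replicate 7, made the difference. At Pcdhb9, aged STD replicate 7 was again at 33.3%, as was 1 young STD mouse, while the other 10 STD mice with a value ranged from 68.8% to 100%. Without aged STD replicate 7, the difference at Pcdhb9 was -0.55 points, and without young STD replicate 1 it was -20.8. Pcdha4 turned to 0.722 points when 5 CpGs were asked of each mouse, and was -3.30 without aged STD replicate 6 and -16.7 without aged STD replicate 4.

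**Figure D4:**
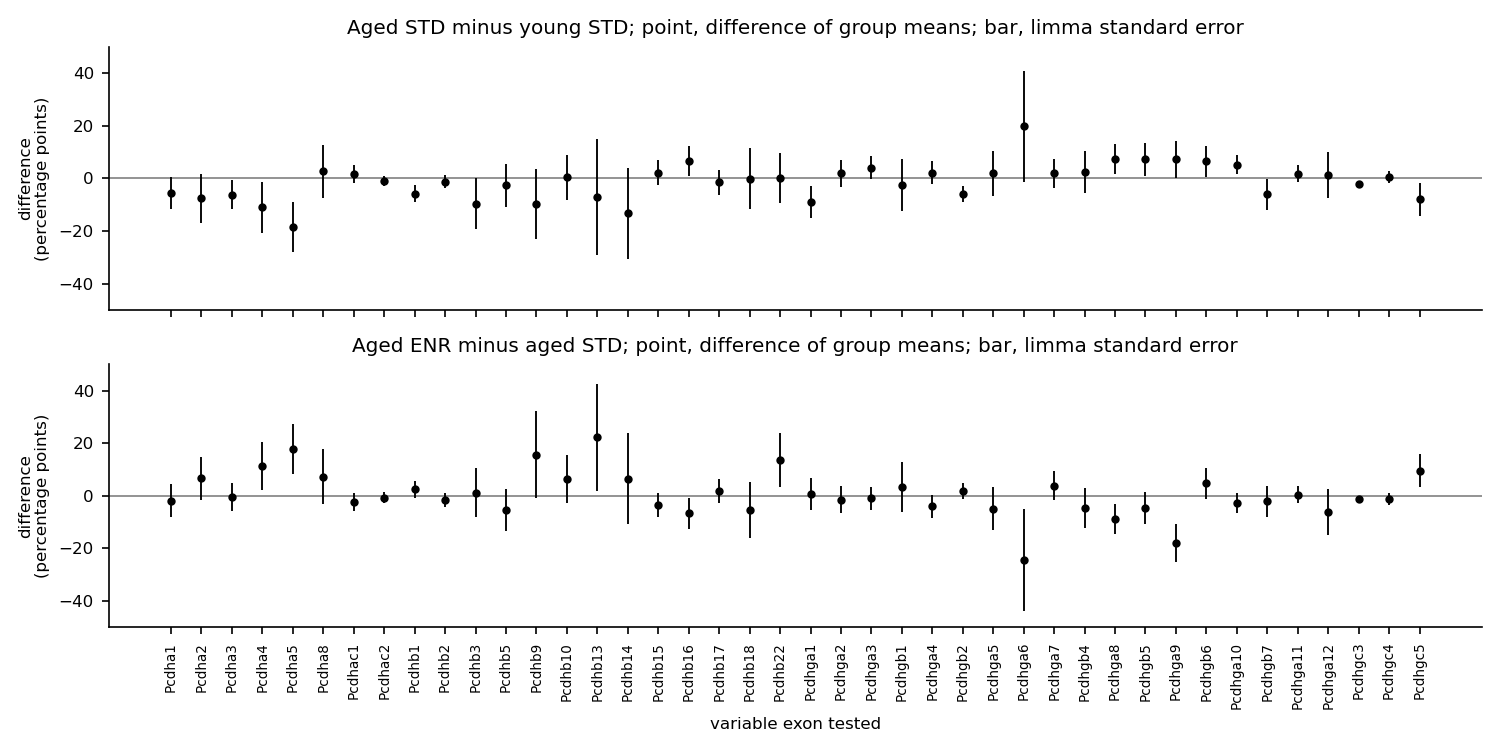
Difference in exon methylation in percentage points (y axis) at each of the 42 exons tested (x axis), above for aged STD minus young STD and below for aged ENR minus aged STD, with the limma standard error as bar. The differences lie on both sides of 0 in both panels, from -18.5 to 19.9 points above and from -24.4 to 22.1 points below.

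Between aged ENR and aged STD mice, 0 of the 42 exons were called by limma with Benjamini-Hochberg adjustment (0.0302% of all first exons), and 1 exon, Pcdhga9, had an unadjusted p under 0.05 (4.05% of all first exons). Aged ENR mice were higher at 19 exons and lower at 23, with a median difference of -0.822 points (SE 6.22 at the median). This comparison and the one with age share the aged STD mice, so their values are given side by side without a test of their likeness. At Pcdhga9 (37736936 to 37739543) the difference was -17.9 points (SE 7.21, limma adjusted p = 0.903). Its lowest, median and highest values were 24.6%, 43.7% and 63.4% among young STD, 27.5%, 46.7% and 80.3% among aged STD, and 16.4%, 33.7% and 44.4% among aged ENR mice. The highest aged ENR mouse lay below the median of the aged STD mice, and the groups overlapped.

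Of the other large ENR differences, those at Pcdhga6, Pcdhb13 and Pcdhb9 rested on 3 to 6 mice a group. Pcdhga6 was at -24.4 points (SE 19.3), with aged ENR mice at 23.1% to 77.1% (median 30.9%) against the 4 aged STD values above, and it was -40.6 without aged STD replicate 3 and -15.1 without aged STD replicate 7. Pcdhb13, whose 6 CpGs include 4 of its promoter, was at 22.1 points (SE 20.4): the 3 aged STD mice had 31.2%, 41.1% and 73.3% and the 6 aged ENR mice 38.7% to 94.0%. Pcdha5, with 7 mice in each group, was at 17.8 points (SE 9.47). Pcdhb9 was at 15.6 points (SE 16.5), or 6.40 points without aged STD replicate 7. All of these had an adjusted p of 0.903 or above with limma.

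**Figure D5:**
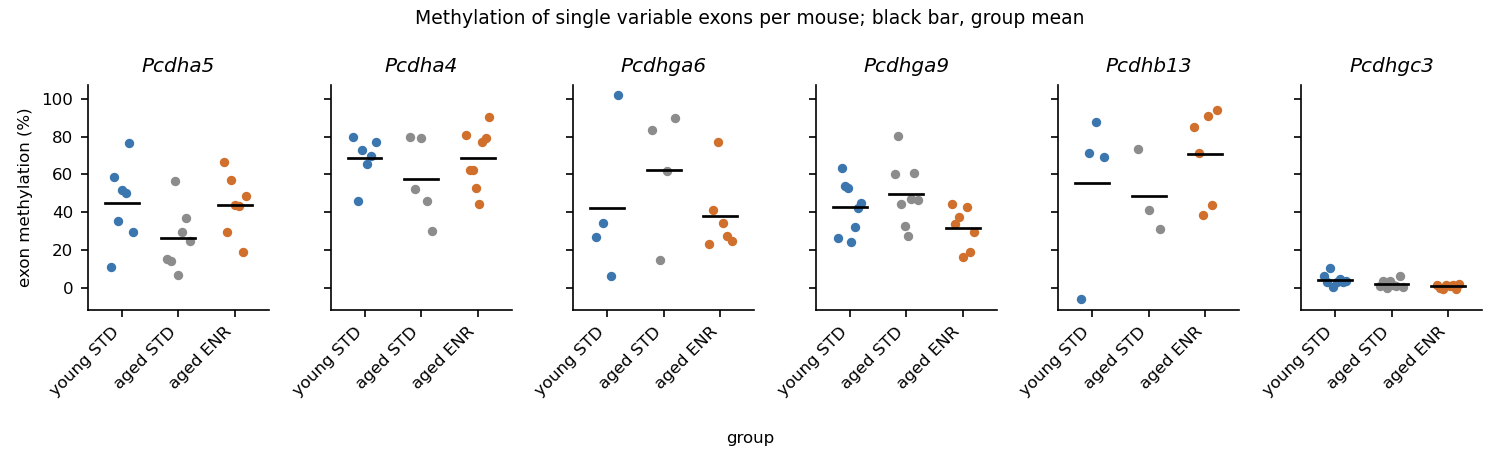
Methylation (percent, y axis) of 6 variable exons in each mouse by group (x axis), with a bar at the group mean. Pcdhga6 and Pcdhb13 spread over most of the scale within a group, the Pcdha5 and Pcdhga9 groups overlap, and all Pcdhgc3 values lie under 11%.

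Between aged ENR and young STD mice, 0 of 42 exons were called by limma with Benjamini-Hochberg adjustment (0.0101% of all first exons), and 1 had an unadjusted p under 0.05 (4.29% of all first exons). This was the C-type exon Pcdhgc3, with -3.65 points (SE 1.11, limma adjusted p = 0.924). Its lowest, median and highest values were 0.712%, 3.47% and 10.7% in young STD mice, and the aged ENR mice ranged from just below 0 to 2.42% (median 1.31%). The aged STD mice lay between, with a median of 1.43% and a highest value of 6.63%. Of the 8 young STD mice, 7 lay above every aged ENR mouse, and 1 overlapped with them.

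Single CpGs gave the same picture. With limma over all 694379 CpGs, Benjamini-Hochberg adjustment and a difference of over 25 points, 0 of the 897 CpGs were called with age (0.00475% of all CpGs), with ENR in aged mice (0.00432%) and between aged ENR and young STD mice (0.00504%). An unadjusted p under 0.05 was reached by 43 CpGs (4.79%) with age, against 2.23% of all CpGs, by 27 (3.01%) with ENR, against 1.9%, and by 30 (3.34%) between aged ENR and young STD mice, against 2.18%. Group means alone differed by over 25 points at 152 CpGs (16.9%) with age, 75 higher and 77 lower in aged STD mice, against 9.16% of all CpGs. With ENR they did so at 135 (15.1%), 63 higher and 72 lower, against 8.33%, and between aged ENR and young STD mice at 124 (13.8%), 57 higher and 67 lower, against 8.42%. The clusters hold more CpGs of intermediate level than the table does. Among CpGs with a level of 20% to 80%, 117 of 392 in the clusters (29.8%) differed by over 25 points with age, against 34.1% of all such CpGs, and with ENR 100 of them (25.5%) did, against 32%. The share in the clusters thus lay above that of the table over all levels and slightly below it at intermediate levels. Restricted to CpGs with 5 mice in each group, 10.7% of 422 in the clusters and 5.15% of all CpGs differed by over 25 points with age.

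Over all CpGs past 25 points, 45.3% were higher in aged STD than in young STD mice and 45.9% higher in aged ENR than in aged STD mice, against 49.3% and 46.7% of those in the clusters. With age, 53 of the 340 CpGs of the alternate Pcdhg exons were higher and 37 lower by over 25 points, and with ENR 23 were higher and 44 lower. Of the 65 CpGs of the alternate Pcdha exons 1 was higher and 9 lower with age, and 12 higher and 2 lower with ENR. Of the 132 in Pcdhb 5 were higher and 15 lower with age, and 11 and 11 with ENR. Of the 141 in the C-type exons 2 were higher and 4 lower with age, and 5 and 2 with ENR. Both comparisons use the same aged STD mice and CpGs of one read share molecules, so these counts have no test.

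The CpGs with the smallest p had values near 0 or 100 in single mice. With age, the smallest p belonged to a CpG in the exon of Pcdhga5 (chromosome 18, 37694935, plus strand, 555 bp into the exon; difference -66.7 points, SE 17.2, limma adjusted p = 1). The 6 young STD mice ranged from 47.4% to 100%, the 4 aged STD mice had 0%, 0%, 0% and 35.3%, and the 8 aged ENR mice ranged from 0% to 100%. Young and aged STD mice did not overlap here, but the CpG 33 bp further into the same exon (37694968, plus strand) went the other way, with a mean of 63.2% in young STD and 90.2% in aged STD mice. At that CpG, which had the second smallest p with ENR, the 4 aged STD mice had 60.6%, 100%, 100% and 100% and the 8 aged ENR mice 0% to 50% (difference -73.3 points, SE 17.2, limma adjusted p = 1).

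The stretch around the first of these CpGs shows how single CpGs of an exon differ. The plus strand of Pcdhga5 held 5 CpGs between 514 and 571 bp into the exon that were measured in the same numbers of mice (6, 4 and 8). Their aged STD means were 5.30%, 55.4%, 62.5%, 8.82% and 42.2% in order, against 58.2%, 34.4%, 36.0%, 75.5% and 43.9% in young STD mice. Neighbouring CpGs thus differed with age in opposite directions, and over its 14 CpGs the exon differed by 2.02 points (SE 8.52).

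A CpG in the first bases of Pcdha5 (36960473, plus strand, 33 bp into the exon) was at 100% in 4 of 4 young STD mice and at 0% in 3 of 3 aged STD mice, while the 4 aged ENR mice had 100%, 100%, 0% and 100% (limma adjusted p = 1). The young and aged STD mice did not overlap, but a value was given in only 7 of them. The remaining CpG named for age lay on the minus strand between variable exons of Pcdha (37116397), with 13.9% to 100% in 5 young STD mice, 74.3% to 100% in 6 aged STD mice and 100% in all 7 aged ENR mice.

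With ENR, the CpG with the smallest p lay 1097 bp into Pcdhga9 (37738033, plus strand). It had 59.2% to 100% in 6 aged STD mice, 70.5% to 100% in 6 young STD mice, and 0%, 6.67% and 29.7% in the 3 aged ENR mice measured. The aged ENR mice did not overlap with either group (difference from aged STD -72.9 points, SE 10.5, limma adjusted p = 0.147, and from young STD -78.6 points, limma adjusted p = 0.0956). A copy of its read stands 3 mismatches away in the interval. The CpG of Pcdhgb5 at 37732963 (minus strand), whose read has a copy at 1 mismatch, was 0% in 4 of 4 young STD mice, 0%, 50%, 52.9% and 82.1% in aged STD mice and 0% to 14.3% in 5 aged ENR mice.

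Correlation between CpGs was highest for those close enough to share reads. The median correlation of deviations between mice was 0.236 for 405 pairs on the same strand within 75 bp, -0.0287 for 514 pairs 76 to 500 bp apart, 0.0177 for 25 pairs of both strands of a CpG, and -0.00219 for 292 pairs of different exons of a cluster. Other CpGs of chromosome 18 within 75 bp of each other had a median of 0.474 (1706 pairs). The pairs share mice and depth, and these values are descriptions. At the median of these pairs, a mouse high at one exon was thus neither high nor low at another exon of the cluster.

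Outside the variable exons, levels differed by region. The CpGs elsewhere in Pcdha had a median of 90.8% (49 CpGs), those elsewhere in Pcdhb 85.6% (14) and those elsewhere in Pcdhg 76.3% (25). The 80 CpGs between or beside the clusters had a median of 70.04% and a mean of 52.8%, with 25 under 10% and 25 over 90%. The CpGs of Taf7 were at 1.56% on average, with 29 of 31 under 10%. Pcdhgb8, which was not among the exons tested, was at 45.2% over 13 CpGs, within the range of its alternate neighbours. The 7 CpGs of constant exons were at 46.0% on average.

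The genes that act on the clusters were looked up in lists, by the same first-exon measure. Of 9 genes of CTCF and cohesin, which fold the clusters, 6 were tested, with a median level of 0.943%. The X-linked Smc1a (22.2%) and Stag2 (19.4%) lay above the others, and none of the 6 was called in any of the 3 comparisons, at an unadjusted p under 0.05 also 0. Of 11 genes of DNA methylation and silencing, 6 were tested (median 0.705%), and of 14 partners in signalling 12 (median 1.47%), with 0 called and 0 at an unadjusted p under 0.05 by limma in either list. The protocadherins outside the clusters were like other first exons: 6 of 12 were tested, with a median of 1.98%, a highest level of 29.7% at the X-linked Pcdh19, and 0 called by limma or at an unadjusted p under 0.05.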

How the data were processed

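After trimming and mapping to mm10, the authors filtered CpGs in methylKit: a mouse's value needed 10 or more reads and no more than its 99.9th percentile of coverage, and a CpG needed values from 3 mice in every group. The file deposited by them gives each CpG's methylation as a percent per mouse, with strands apart. The submitters' processing notes list Trim Galore 0.4.0, cutadapt 1.8.1, Bismark 0.16.1 and methylKit 1.5.2, and the methods of the study give other versions of Trim Galore and Bismark. Read counts were not used here, so the depth behind a value is unknown.

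A variable exon was the first exon of a gene's protein-coding transcript with the longest coding sequence (GENCODE M21) plus 500 bp before it. Each CpG was centred on the mean of its 3 group means, and a mouse needed 3 CpGs in the exon, so a centred value can pass 0 or 100. Percentages of CpGs and of exons were fitted with limma 3.58.1 (R 4.3.3), all 3 groups in one fit without covariates, over the whole table with Benjamini-Hochberg adjustment. A mouse without a value was left out of that fit. CpGs were called at an adjusted p under 0.05 and over 25 points, exons at an adjusted p under 0.05. Other steps used Python 3.11.15 (numpy 2.4.6, pandas 2.3.3, scipy 1.17.1, matplotlib 3.10.9). The fits were tested on simulated data.

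The exons and CpGs named were all C-type exons, the highest and lowest 2 of each cluster, the 5 largest differences with age and with ENR, any exon or CpG called, and the 3 CpGs with the smallest p in each of these comparisons. The neighbours of the named CpGs in Pcdhga5 and the exons given for the within-exon gradient were chosen after their values were seen. The CpGs, gene lists and tests were chosen with earlier results of these data known. Mice of different groups share the numbers 1 to 8 in the labels but are different animals. Their deviations from the group means correlated at -0.00387 on average over 24 pairs, so numbers were not taken as pairs. Separate mice are the replicates. Alternatives were other minimum numbers of CpGs and mice, plain means, a log2 ratio scale, exons without promoters, averaged strands, medians, other sizes, a replicate block and leaving out each mouse. Sequences and motifs of the exons are not reported here.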

Additional observations from a re-analysis of the deposited data

Results flagged for a closer look

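In each group of 4 to 10 mice with a value, the gap between the highest or lowest mouse and its nearest neighbour was compared with the range of the group by Dixon's critical value at 95%, over the class means, the named exons and CpGs and the number of CpGs per mouse. Of 77 groups so compared, 9 had a mouse that stood apart, and chance gives about 1 in 20 where values are continuous. Here many values are exactly 0% or 100%, and in 5 of the 9 groups all other mice shared 1 value, so that any differing mouse stood apart and the rate does not apply.

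Among exons, Pcdhac2 was at 14.5% in young STD replicate 3, against 1.40% to 6.19% in the other 7 young STD mice. Pcdhb9 was at 33.3% in young STD replicate 1, against 100% in the other 5 with a value. Pcdhgc4 was at 19.0% in aged STD replicate 8, against at most 5.04% in the other aged STD mice. Pcdhga6 was at 77.1% in aged ENR replicate 5, against 23.1% to 41.2% in the other 5.

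Among CpGs, 37694935 of Pcdhga5 was at 35.3% in aged STD replicate 6, against 0% in the other 3 aged STD mice, and at 100% in aged ENR replicate 3, against 0% to 43.2% in the other 7 aged ENR mice. The CpG 37694968 of the same exon was at 60.6% in aged STD replicate 6, against 100% in the other 3. The CpG 36960473 of Pcdha5 was at 0% in aged ENR replicate 7, against 100% in the other 3, and 37116397 was at 74.3% in aged STD replicate 6, against 100% in the other 5. Aged STD replicate 6 was thus named at 3 CpGs, but those of Pcdhga5 lie on the same strand, close enough to share reads. At all 3, the other aged STD mice with a value shared the same percentage. The class means and the number of CpGs per mouse had none.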

How the results depend on the processing

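No variable exon was called in any of the 3 comparisons under any of the 31 alternatives, the leaving out of each mouse included. Over all first exons these alternatives called 0 to 5. At single CpGs, 0 were called with 5 mice per group, as over all 223328 such CpGs. On the log2 ratio scale 0 were called, against 31, 45 and 37 of all 694379 CpGs with age, with ENR and between aged ENR and young STD mice. Without aged STD replicate 5 also 0 were called, against 31, 37 and 27 of 649748. The replicate block, a fit that treats equal numbers as pairs, called 1 CpG with age, 2 with ENR and 2 between aged ENR and young STD mice. Over the whole table it called 486, 422 and 401 of 686286 CpGs in the same order, and the called CpGs of the clusters lay in or just after the Pcdhgc5 exon, with 3 or 4 mice a group. No paired design underlies the numbers. Asking for 5 mice per group left 45, 44 and 38 CpGs past 25 points, in the order of the comparisons above (10.7%, 10.4% and 9% of those in the clusters, against 5.15%, 4.72% and 4.82% of all). A limit of 20 points gave 188 (21%, against 12.9% of all) between aged ENR and young STD mice. Without its C-type exons, an alternative chosen after seeing the data, the mean of Pcdha was 61.6% (young STD), 55.2% (aged STD) and 61.8% (aged ENR) instead of 48.7%, 44.0% and 48.3%, and that of Pcdhg was 52.6%, 54.8% and 51.6% instead of 46.4%, 47.8% and 45.5%. Without the 130 CpGs whose read has another placement within 3 mismatches, also chosen after seeing the data, the cluster means moved by less than their SD, with 9 instead of 13 Pcdhb and 7 instead of 8 Pcdha exons. Pcdhb was then at 77.9%, 74.6% and 75.9% and Pcdhg at 45.8%, 48.6% and 46.2%, in the same order of groups. Asking for 5 CpGs per mouse and exon left 7 Pcdhb exons, with means of 75.9%, 75.4% and 72.9%. The aged ENR mean of Pcdhb then lay below that of aged STD mice instead of above it. Among exons, directions were followed only for those with the 5 largest differences with age and with ENR. Of these, Pcdha4 changed its direction with age to 0.722 points with 5 CpGs per mouse. The others kept their direction where a value was given. Pcdhb9 ranged from -20.8 to -0.55 points with age and from 2.11 to 19.7 with ENR. Pcdhga6 ranged from 8.15 to 39.4 with age and from -40.6 to -15.1 with ENR. Too few mice remained for a value without a mouse measured at Pcdhb14, an aged STD mouse measured at Pcdhb13 or an aged ENR mouse measured at Pcdhb9. Aged STD replicate 7, at 33.3% in Pcdhb14, was such a mouse, so the direction there was not followed without it. With the replicate block, Pcdha4 was at -2.81, Pcdhb14 at -24.3 and Pcdhga6 at 10.4 points with age. The 6 named CpGs kept their direction under the 2 or 3 alternatives that gave a value. What depth limits is unknown, since percentages come without read counts.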
